A study of Mus musculus with 4 samples.

Results

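The Wnt ligands are a family of secreted, lipid-modified glycoproteins that cells use to instruct their neighbours. The gene set described here held 10 of them, Wnt1, Wnt3, Wnt3a, Wnt4, Wnt5a, Wnt5b, Wnt6, Wnt7a, Wnt10b and Wnt11, of 8251 genes named on the arrays. They were chosen by gene symbol, with earlier results of these data known. They were read by 12 of the 12422 probe sets tested, each of which the platform annotation gave exactly 1 gene symbol. Wnt10b had 3 probe sets and each other ligand had 1.

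The study measured RNA from mouse embryonic fibroblasts (MEFs) on 4 Affymetrix arrays, in a series set up to look for genes downstream of menin, the nuclear scaffold protein encoded by Men1. All cells carried the Men1 knockout genotype on a mixed FVB;129Sv background. The 2 samples titled Men1 MEFs came from cells complemented with Men1, and the 2 titled Men1-/- MEFs came from cells complemented with vector. All were grown in 10% serum, seeded at 70% density and harvested after 24 h. The vector backbone, the promoter driving Men1, the age of the embryos and whether the cells were 1 clone are not known from the labels. Nor do the labels say that the 2 samples of a group came from separate cultures, so p-values below measure only a spread between arrays that may be technical.

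In the Wnt pathway, a ligand binds a Frizzled receptor on the receiving cell. In the canonical branch the co-receptors Lrp5 and Lrp6 join it, the complex that destroys beta-catenin is disabled, and beta-catenin enters the nucleus to act with the DNA-binding factors Tcf and Lef. Other ligands, Wnt5a and Wnt11 among them, are best known for branches that do not need beta-catenin and that act on cell shape and movement, partly through the receptors Ror2 and Ryk. Mesenchymal cells both send and receive Wnt signals, and Wnt5a is the ligand most commonly associated with embryonic mesenchyme.

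The 250 bases before the start of 3 ligand genes are shown first. Wnt3 is shown because it was the 1 ligand whose groups separated widely, and Wnt1 and Wnt4 because they were above the control level on every array and did not separate. Sequences are from RefSeq (GRCm38.p6), read 5′ to 3′ on the strand of the gene: Wnt3 at chr11:103773925-103774174 (+ strand), Wnt1 at chr15:98789607-98789856 (+ strand) and Wnt4 at chr4:137277385-137277634 (+ strand). Capitals mark the core of the Tcf and Lef recognition sequence, CTTTG on either strand.
Wnt3: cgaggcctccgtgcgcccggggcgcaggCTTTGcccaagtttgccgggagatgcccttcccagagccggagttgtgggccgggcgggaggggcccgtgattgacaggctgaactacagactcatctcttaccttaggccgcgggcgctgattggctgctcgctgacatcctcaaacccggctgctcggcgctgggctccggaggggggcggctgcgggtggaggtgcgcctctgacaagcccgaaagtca
Wnt1: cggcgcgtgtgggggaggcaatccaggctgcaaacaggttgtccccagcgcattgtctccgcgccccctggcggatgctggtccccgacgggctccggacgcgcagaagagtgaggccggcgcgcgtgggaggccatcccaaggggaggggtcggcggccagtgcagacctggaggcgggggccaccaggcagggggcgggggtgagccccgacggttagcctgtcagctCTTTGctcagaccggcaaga
Wnt4: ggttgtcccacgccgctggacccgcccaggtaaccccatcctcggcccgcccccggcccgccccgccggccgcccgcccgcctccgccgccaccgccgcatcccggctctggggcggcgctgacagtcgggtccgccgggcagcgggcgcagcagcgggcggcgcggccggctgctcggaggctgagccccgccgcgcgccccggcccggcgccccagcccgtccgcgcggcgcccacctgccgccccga
The Wnt3 window held 1 match, whose first base lay at -222 from the start, the Wnt1 window held 1 match at -20, and the Wnt4 window held 0. Of 32851 such windows of mouse genes, 48.6% held at least 1 match, so a match is common. RefSeq's table held 12 windows for 9 of the 10 ligands, Wnt5a being the other, and 5 of these windows held a match. Bases G and C made up 68.0% of the Wnt3 window, 71.6% of the Wnt1 window and 85.2% of the Wnt4 window, against a median of 52.4% over all windows. No binding was measured here, and a match is a description of the letters alone.

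Signals are linear probe set intensities, which the authors made with Affymetrix MAS5 software and which put each array on a common scale. They were set beside 19 control probe sets for bacterial and yeast sequences to which no RNA had been added. The highest such control read 25.9 and 27.4 on the Men1 arrays, against 15.9 and 20 with vector. Where neither array of a group exceeded its own highest control, the gene is said to be at control level in that group. Differences are Men1 minus vector on the scale log2(signal + 16), which understates the fold of dim probe sets. They were tested with limma over all 12422 probe sets, and a Benjamini-Hochberg adjusted p below 0.05 was taken as the threshold. A signal from cells in bulk cannot tell fewer cells of a type from less RNA per cell.

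Most Wnt ligand probe sets lay near or below the controls in these fibroblasts. Of the 12 ligand probe sets, 3 exceeded the highest control on all 4 arrays, those of Wnt1, Wnt4 and Wnt5a, where 58.1% of all probe sets did. Another 4 exceeded it on none, those of Wnt6, Wnt7a, Wnt11 and 1 of Wnt10b, where 25.5% of all probe sets did. By array, 4 and 3 ligand probe sets exceeded the control with Men1, and 7 and 7 with vector. Of all probe sets 63.1% and 61.9% did with Men1, against 67.9% and 70.7% with vector. The highest control was brighter on both Men1 arrays, while the median control read 7 and 3.8 with Men1, against 2.8 and 5.4 with vector, and overlapped. Set beside 27.4, the highest control of any array, the ligand counts were 4 and 3 with Men1, against 5 and 5 with vector. Of all probe sets 62.2% and 61.9% exceeded that level with Men1, against 59.7% and 65.4% with vector. Among the ligands the difference that remained was Wnt3 together with 1 probe set of Wnt10b on Men1 replicate 2. This common level was chosen after the values were seen.

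**Figure D1:**
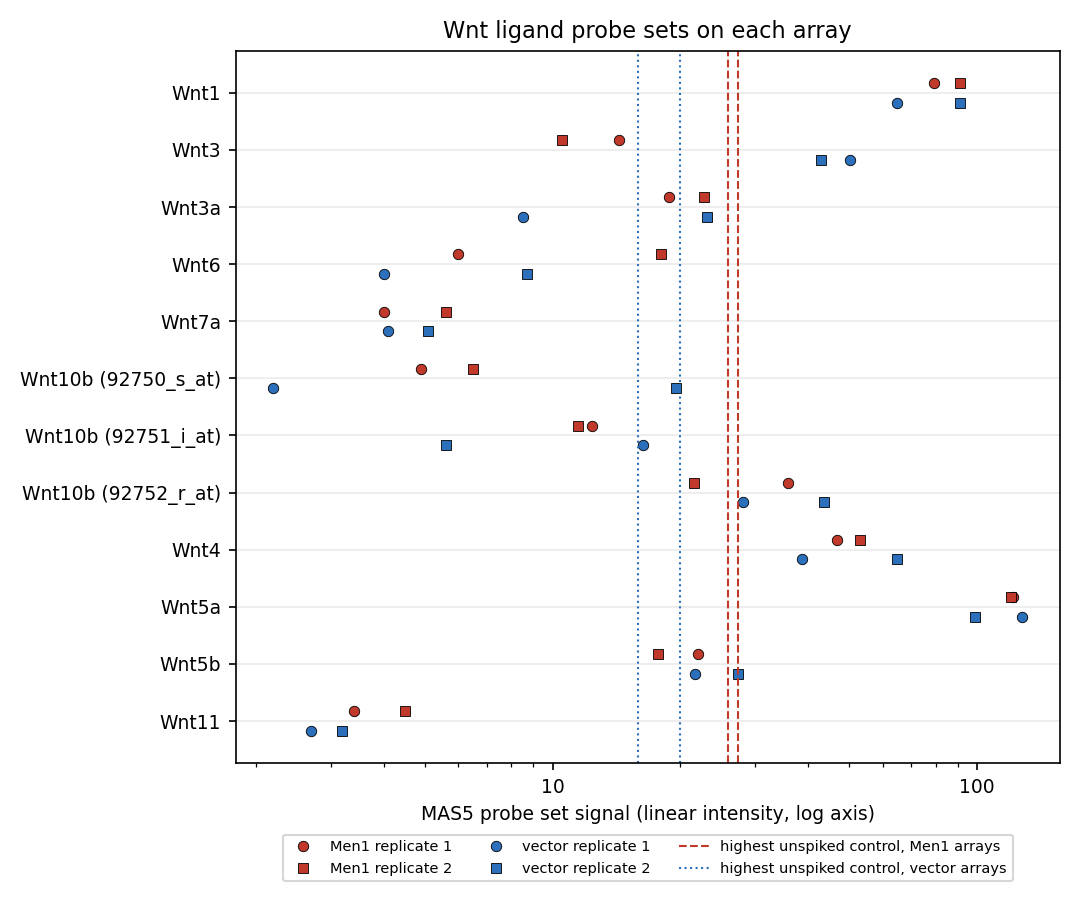
Signal of each Wnt ligand probe set on each array (linear intensity on a log axis). Each point is 1 array, with Men1 in red above vector in blue, circles for replicate 1 and squares for replicate 2; dashed and dotted lines mark the highest unspiked control on each array. The Wnt3 points with Men1 lie at 14.3 and 10.5, below the lines of their own arrays, and those with vector at 50.3 and 42.8, above theirs.

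Wnt3, a ligand of the canonical branch that is needed to form the primitive streak of the mouse embryo, was the 1 ligand at an unadjusted limma p under 0.05. It read 14.3 and 10.5 on the Men1 arrays, both at control level, and 50.3 and 42.8 on the vector arrays, both above it. Every vector signal exceeded every Men1 signal, so the groups did not overlap. Means were 12.4 ± 2.69 with Men1, against 46.55 ± 5.30 with vector (SD, n = 2 each). The log2 difference was -1.14 with a standard error (SE) of 0.19 and a 95% interval of -1.63 to -0.65. Because the Men1 signals were at control level, the size has only a bound, at least 1.46-fold higher with vector, or 1.44-fold beside the common level of 27.4. Taken from group means, the bound makes no allowance for the spread between arrays. The limma adjusted p was 1, so Wnt3 did not pass, and its unadjusted limma p was 0.0019.

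At control level on both Men1 arrays and above it on both vector arrays were 2.37% of all probe sets, and 2 of the 12 ligand probe sets, those of Wnt3 and Wnt5b. The size of the Wnt3 difference depended on the pseudocount: it was -1.84 with 1 and -0.53 with 64, against -1.14 with 16. Without any single array it lay between -1.24 and -1.04. Wnt3 had 1 probe set, so no other reading of the same gene was at hand. Of its neighbours on the RefSeq annotation, Wnt9b was not analysed here, and Nsf, a vesicle fusion ATPase, read 132.5 and 149.9 with Men1, against 176.2 and 164.4 with vector, a log2 difference of -0.25 that did not pass.

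Of the other canonical ligands, Wnt1 and Wnt3a are the best studied. Wnt1, which patterns the midbrain and is an oncogene of the mouse mammary gland, read 79 and 91.3 with Men1, against 64.8 and 91.1 with vector. These overlapped, and the log2 difference was 0.12 (95% interval -0.45 to 0.69). Wnt3a, the close relative of Wnt3 that drives formation of the paraxial mesoderm, read 18.8 and 22.7 with Men1, at control level, against 8.5 and 23.1 with vector, where replicate 2 alone exceeded the control. The Wnt3a difference was 0.25, with an interval of -0.47 to 0.97 that includes 0. Whether Wnt3 and Wnt3a differed from each other was not tested.

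Wnt6 and Wnt7a were at control level on all arrays. Wnt6, made by surface ectoderm next to the somites, read 6 and 18 with Men1, against 4 and 8.7 with vector. Wnt7a, the dorsal signal of the limb ectoderm, read 4 and 5.6 with Men1, against 4.1 and 5.1 with vector. Their log2 differences were 0.30 (SE 0.28) and 0.01 (SE 0.17), and in both genes the groups overlapped. At this signal a difference in the RNA was not detectable, which does not show that these ligands were not made.

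Wnt10b, which holds back fat cell formation in mesenchymal precursors, was read by 3 probe sets that did not go the same way. The probe set 92752_r_at read 35.9 and 21.5 with Men1, against 28.1 and 43.5 with vector, above the control on 3 of 4 arrays. The probe set 92751_i_at read 12.4 and 11.5 with Men1, against 16.3 and 5.6 with vector. The probe set 92750_s_at read 4.9 and 6.5 with Men1, against 2.2 and 19.5 with vector. Their log2 differences were -0.22, 0.08 and -0.23, each within its SE of 0.26, 0.25 and 0.35, and the groups overlapped in all 3. The endings r, i and s mark probe sets that did not meet all of the maker's design rules, and s marks probes that may also read related sequences. For the i and s probe sets the spread lay mainly between the vector arrays. Over all probe sets, the 25th percentile of the signal was 12.1 and 11.4 on the Men1 arrays, against 9.6 and 15 with vector.

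For Wnt5a, Wnt5b and Wnt11, best known for signalling without beta-catenin, no difference exceeded its SE. Wnt5a, which drives outgrowth of the limb and face and signals through Ror2, read 121.3 and 119.9 with Men1, against 127.8 and 99.1 with vector. Both Men1 values fell between the vector values, and the log2 difference was 0.09 (SE 0.20, 95% interval -0.42 to 0.60). Wnt5b, a regulator of cartilage cells, read 22 and 17.7 with Men1, at control level, against 21.7 and 27.3 with vector, above it. These signals overlapped and the difference was -0.18 (SE 0.19), so the Wnt5b call rests on the lower controls of the vector arrays, and it gave no bound on the fold above 1.

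Wnt4, which starts kidney tubule formation and directs the female gonad, read 46.9 and 53 with Men1, against 38.7 and 64.8 with vector, a log2 difference of -0.01 (SE 0.25, 95% interval -0.66 to 0.63). Wnt11, which guides cell movements in gastrulation and branching of the ureteric bud, read 3.4 and 4.5 with Men1, against 2.7 and 3.2 with vector. The Wnt11 groups did not overlap, but all 4 values were far below the controls and the difference was 0.07 (SE 0.17). The intervals of Wnt1, Wnt4 and Wnt5a, the ligands above control on every array, reached at most 0.69 in either direction on the log2 scale.

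Over the 12 ligand probe sets, 7 were higher and 5 lower with Men1, where 5861 and 6561 of all probe sets were. The median log2 difference of the ligand probe sets was 0.04, against -0.01 over all probe sets. None passed the limma threshold, as for all probe sets (0 of 12422, or 0%). At an unadjusted limma p under 0.05 there was 1, Wnt3, which was lower, where 1.88% of all probe sets were at that level in either direction and 0.966% were lower. Groups did not overlap for 2 of the 12, Wnt3 lower and Wnt11 higher, or 16.7%. Of all probe sets 22.1% did not overlap, 11.7% lower and 10.4% higher. The share among the ligands is near that background.

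**Figure D2:**
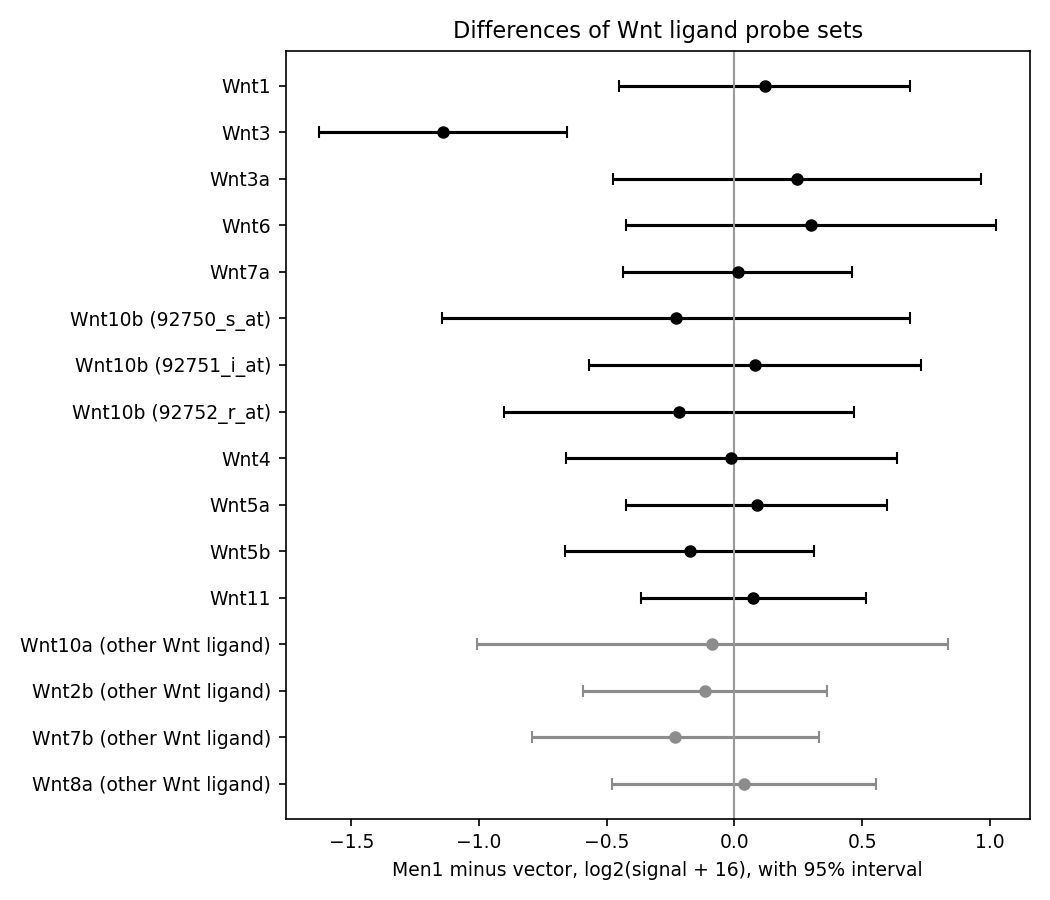
Difference of each Wnt ligand probe set, Men1 minus vector on log2(signal + 16), with its 95% interval from limma; grey marks the 4 other Wnt ligands measured. The interval of Wnt3, -1.63 to -0.65, lies below 0, and those of the other 15 probe sets include 0.

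The other Wnt ligands measured were Wnt2b, Wnt7b, Wnt8a and Wnt10a, with 1 probe set each. Wnt10a, a ligand of teeth, hair and skin, was above the control on all arrays, at 49.4 and 30.5 with Men1, against 27.7 and 62.6 with vector, and differed by -0.09 (SE 0.36). Wnt6 and Wnt10a are neighbours on mouse chromosome 1, as are Wnt1 and Wnt10b on chromosome 15, and in neither pair did a probe set separate the groups. Wnt2b, Wnt7b and Wnt8a were at control level on all arrays. Of these only Wnt7b, at 7.7 and 7.9 with Men1, against 8.1 and 16.4 with vector, had groups that did not overlap.

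The rest of the pathway was read from 6 lists by role with 145 probe sets for 106 genes. None of the 145 passed the limma threshold, and 3 were at an unadjusted limma p under 0.05, all higher with Men1, where 1.88% of all probe sets were at that level. That count was 16 without vector replicate 1 and 8 without vector replicate 2, where 8.3% and 4.5% of all probe sets were at that level. It was 0 without Men1 replicate 1 or 2, where 0.974% and 1.05% of all probe sets were. The groups did not overlap for 30 of the 145 (20.7%), 15 in each direction, near the 22.1% of all probe sets. Of the 145, 75 were higher and 70 lower with Men1, where 5861 and 6561 of all 12422 probe sets were.

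Making and release of ligands was read by 16 probe sets for 12 genes. Of these 5 were higher and 11 lower, with a median log2 difference of -0.17 against -0.01 over all probe sets. Wls, the carrier that takes lipid-modified Wnt proteins to the cell surface, read 315.8 and 262.5 with Men1, against 321.2 and 414.5 with vector, and the difference of -0.33 (SE 0.22) did not pass. The heparan sulphate proteoglycan Gpc1, which holds Wnt proteins at the cell surface, read 480.8 and 688.5 with Men1, against 427.2 and 553.1 with vector. Gpc3, of the same family, read 85.9 and 83.6 with Men1, against 51.4 and 296.9 with vector, and its difference of -0.53 (SE 0.73) turned to 0.58 without vector replicate 2.

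Receptors were read by 21 probe sets for 15 genes, 7 higher and 14 lower, with a median of -0.08. Both probe sets of Ryk, a receptor for Wnt5a and other ligands, were lower with Men1 without passing. The first read 199.2 and 237.5 with Men1, against 263.6 and 321.6 with vector (difference -0.40, SE 0.20), and the other differed by -0.33 (SE 0.20). Ror2, the receptor best known for Wnt5a, gave opposite signs, 0.23 for the probe set above control on all arrays and -0.42 for the dimmer one. The Frizzled receptors Fzd2, at 314.1 and 420.6 with Men1, against 348.5 and 456.6 with vector, Fzd1 and Fzd7 differed by -0.13, -0.09 and -0.08, and the groups overlapped in each. The co-receptor Lrp6 differed by 0.21 in its brighter probe set and -0.08 in the dimmer one, and Lrp5 differed by -0.01. For each of the 7 genes the 95% interval includes 0.

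Secreted modulators were read by 14 probe sets for 12 genes, 8 higher and 6 lower, with a median of 0.06, and 8 of the 14 exceeded the controls on no array. The soluble Wnt antagonist Sfrp1 read 118.3 and 155.1 with Men1, against 113.6 and 616.5 with vector. Sfrp2, of the same family, read 26.2 and 81.7 with Men1, against 28.6 and 103.7 with vector. Dkk3, a relative of the Wnt antagonist Dkk1, read 29.4 and 110.9 with Men1, against 34.3 and 229.7 with vector. In all 3 genes the replicate 2 array was the brighter one in each group, and the SEs of 0.76, 0.62 and 0.89 exceed or approach the differences of -0.92, -0.19 and -0.55. Without vector replicate 2 the differences turned to 0.23, 0.53 and 0.59. Dkk1 and Frzb, another antagonist, were at control level on all arrays.

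Genes of signal transduction were read by 58 probe sets for 37 genes, 31 higher and 27 lower, with a median of 0.01. Ctnnb1, which encodes beta-catenin, read 1105.3 and 1070.6 with Men1, against 1344 and 979.6 with vector, a difference of -0.08 (SE 0.22). Axin1, a scaffold of the complex that destroys beta-catenin, read 340.4 and 277.1 with Men1, against 224.9 and 249.3 with vector. Its groups did not overlap, but the difference of 0.35 (SE 0.20) did not pass. Apc, of the same complex, differed by 0.08 (SE 0.26), Dvl1, which passes the signal on from Frizzled, by -0.05 (SE 0.23), and the 2 probe sets of Tcf7l2, a DNA-binding partner of beta-catenin, by 0.19 and -0.05. The 1 probe set of this list at an unadjusted limma p under 0.05, Frat1, an activator that counters Gsk3, read 12.7 and 11 with Men1, against 2.5 and 5.1 with vector, all below the controls. Frat1, and Id2 among the target genes, were named after their values were seen.

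**Figure D3:**
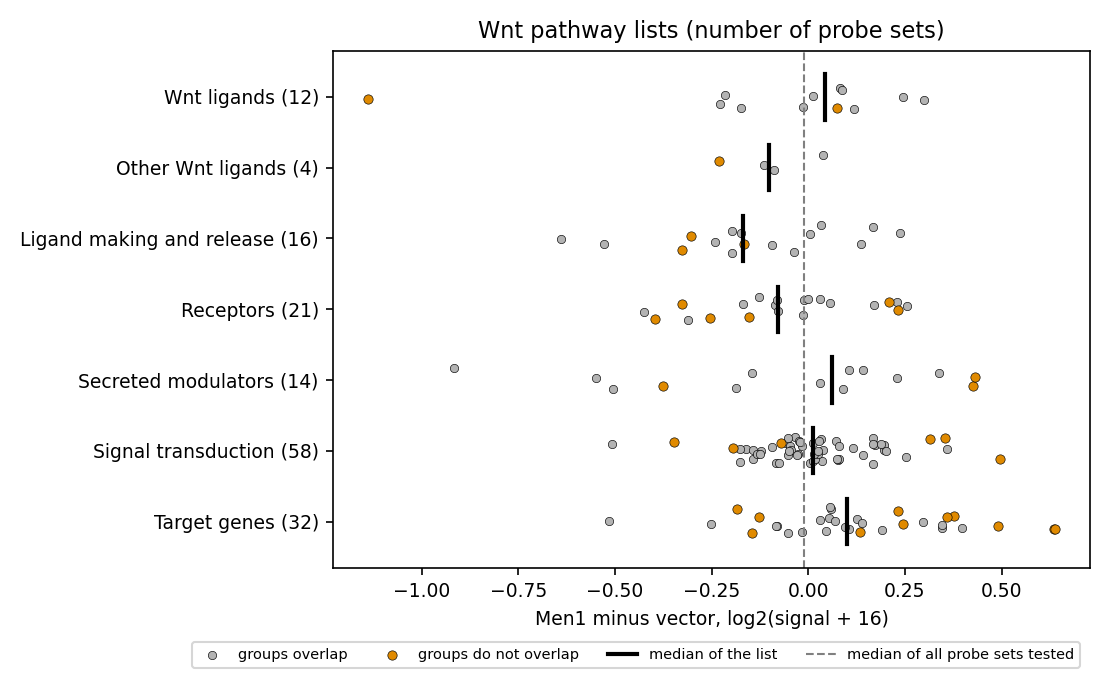
Differences of every probe set of the Wnt pathway lists, Men1 minus vector on log2(signal + 16); each point is 1 probe set, orange where the signals of the groups do not overlap. Black bars mark list medians, from -0.17 to 0.10, and the dashed line marks the median of all probe sets, -0.01; the Wnt3 point at -1.14 is the lowest shown.

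Genes that textbooks give as targets of beta-catenin in various tissues were read by 32 probe sets for 26 genes. Of these 23 were higher and 9 lower with Men1, where 5861 and 6561 of all probe sets were. Their median was 0.10, against -0.01 over all probe sets. None passed the limma threshold. At an unadjusted limma p under 0.05, 2 were higher, where 0.91% of all probe sets were. They were the dimmer of the 2 Lef1 probe sets and that of Id2. The groups did not overlap for 11 of the 32, 8 higher and 3 lower, or 34.4% against 22.1% of all probe sets. Some of the 11 were below the controls on every array: Cdx1 and Nrcam among the higher, and all of the lower, Cdx2, Tnfrsf19 and Mycn 161417_r_at. These were named after their values were seen. Id2, an inhibitor of helix-loop-helix transcription factors, read 163.5 and 133.9 with Men1, against 102.5 and 99.2 with vector. These genes answer to many other signals, and the probe sets share the same 4 arrays.

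Axin2, the feedback inhibitor most often used as a readout of beta-catenin, read 42.2 and 59.6 with Men1, against 35.9 and 57.2 with vector, a difference of 0.11 (SE 0.26, 95% interval -0.57 to 0.78) with groups that overlapped. Lef1, a DNA-binding partner of beta-catenin that is also its target, was read by 2 probe sets of the same sign, and only 1 separated the groups. The annotation gives both the same source sequence, and whether the 2 probe sets differed from each other was not tested. One of them, 103629_g_at, read 58.8 and 55 with Men1, against 34.1 and 27.9 with vector, a log2 difference of 0.64 (SE 0.18, limma adjusted p = 1). The brighter one, 103628_at, read 232.3 and 237.1 with Men1, against 216.8 and 232.8 with vector, a difference of 0.06 (SE 0.17).

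Myc, a growth regulator, read 369.7 and 401.5 with Men1, against 312 and 186.4 with vector, a difference of 0.64 (SE 0.28) that did not pass. Fosl1, an AP-1 subunit, read 395.1 and 501.5 with Men1, against 383.9 and 308.1 with vector, and differed by 0.36 (SE 0.22). In both the groups did not overlap. Cyclin D1 (Ccnd1) differed by 0.05 and 0.13 in its 2 probe sets, the matricellular protein gene Ccn4 by 0.03, and the bright probe set of the hyaluronan receptor Cd44 by 0.35, with overlapping groups in each. The 95% intervals of Myc, Fosl1, Ccnd1, Ccn4 and Cd44 include 0.

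**Figure D4:**
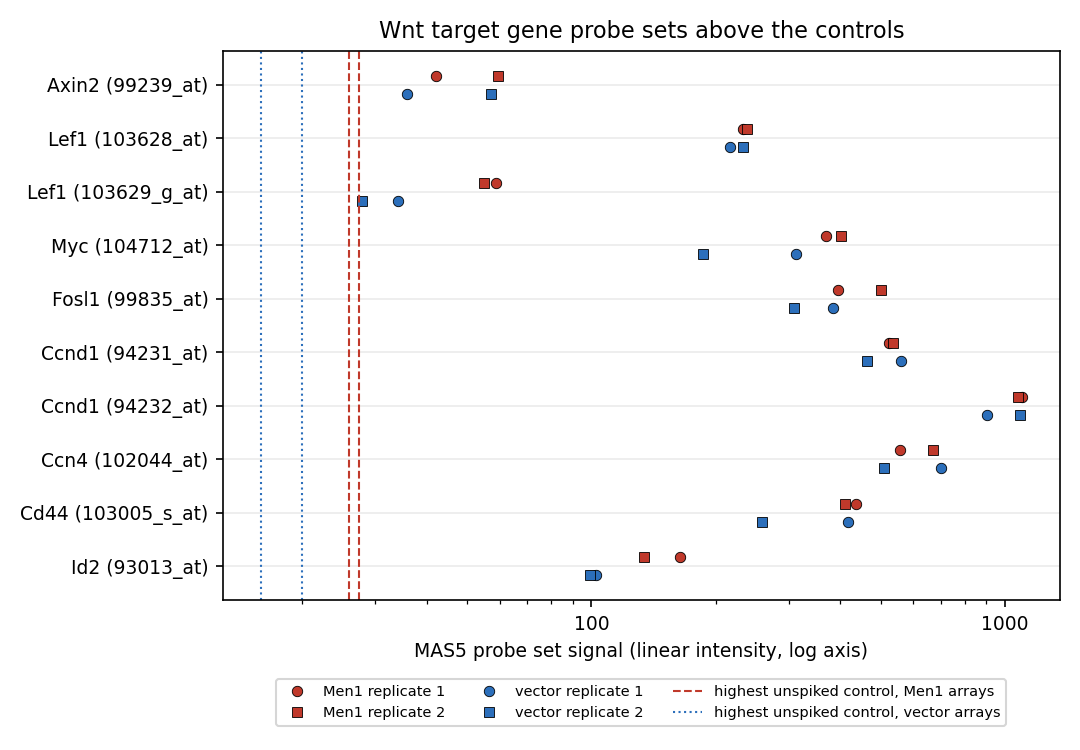
Signal on each array (linear intensity on a log axis) of the Wnt target gene probe sets that the text names and that exceeded the controls on all arrays; Men1 in red above vector in blue, circles for replicate 1 and squares for replicate 2. The groups separate for Lef1 probe set 103629_g_at, Myc, Fosl1 and Id2, with Men1 higher, and overlap for Axin2, Lef1 probe set 103628_at, Ccnd1, Ccn4 and Cd44.

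Facts of the whole series bear on these values. The Men1 probe set itself read 18.8 and 22.5 on the Men1 arrays, at control level, against 18.1 and 29.5 on the vector arrays, both above it, a direction opposite to the labels. These signals overlapped, the log2 difference was -0.11 (SE 0.22), and the probe set's place relative to the deleted and introduced sequence is unknown, so it does not check the labels. Of 28 probe sets for 19 fibroblast markers 15 exceeded the controls on all arrays, where 58.1% of all probe sets did. Those of Col1a1 and Fn1 were among the 15, while those of Fap and Thy1 exceeded the controls on no array. Of 17 probe sets for 14 muscle markers, 5 were higher and 12 lower with Men1, where 5861 and 6561 of all probe sets were. Their summed signals were 10157 and 6664 with Men1, against 12571 and 6388 with vector. The smooth muscle genes Acta2, Tagln and Cnn1 held 87.5% and 81.8% of the sum with Men1, against 88.2% and 80.5% with vector. Of the muscle probe sets 2 were at an unadjusted limma p under 0.05, both lower, where 0.966% of all probe sets were. Both were skeletal, and of all 233 probe sets at that level 120 were lower. The transcription factor Myog read 23.7 and 28.1 with Men1, against 68.1 and 53.3 with vector, and the troponin Tnni1 read 61.4 and 74.5 with Men1, against 111.9 and 105.4 with vector. Myod1, another muscle transcription factor, read 80.2 and 97.7 with Men1, against 78.9 and 109.8 with vector, and Myf5 was at control level on all arrays. Other skeletal genes went both ways: Acta1 differed by -0.41, Ckm by -0.30 and 0.23, and Tnnt1 by 0.06 and 0.04. Of 14 probe sets for 9 blood markers, 6 were higher and 8 lower with Men1. The 1 among them at an unadjusted limma p under 0.05 was that of Cd79a, also lower. It read 20.6 and 19 with Men1, at control level, against 41.3 and 30.9 with vector, above it. The part of muscle-like or other cells in the Wnt3 signal was not tested. Cd79a and these skeletal muscle genes were named after their values were seen. Markers of epithelium, another source of Wnt ligands in the embryo, summed to 267.6 and 410.5 with Men1, against 322.5 and 374.4 with vector. Of their 13 probe sets 8 exceeded the controls on no array, where 25.5% of all probe sets did, and 2 on all arrays. Those 2 were Cdh1, at 93.7 and 156.7 with Men1, against 132.6 and 165.2 with vector, and 1 of Krt19. The latter read 106.7 and 146.5 with Men1, against 93.6 and 67.2 with vector, and its groups did not overlap. The other Krt19 probe set was at control level on all arrays and differed by -0.03. Of the 13 epithelial probe sets 3 were higher and 10 lower with Men1, with a median log2 difference of -0.16. The signal ratio of 3′ to 5′ probe sets, often read as a sign of RNA quality, was 1.18 and 1.09 with Men1, against 1.15 and 1.08 with vector for Actb, where the groups overlapped. For Gapdh it was 0.850 and 0.804 with Men1, against 0.782 and 0.743 with vector, higher on both Men1 arrays, and its part in the results was not tested. Per the labels, the first strand was primed with random oligomers as well as poly(T), so these ratios need not follow RNA breakdown as they do with poly(T) alone.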

How the data were processed

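RNA of 4 samples, 2 complemented with Men1 and 2 with vector, was measured on 1 array each. The deposited values are probe set intensities on a linear scale. Per the submitters' processing notes, the tools were MAS5 and Affymetrix Expression Console; neither a version nor a scaling target is stated. The mean after trimming 2% at each end was 150.1 on every array, a sign of scaling by whole array, which cannot show a change in total RNA. Of 12488 probe sets, 66 controls were left out and 12422 were tested; 10833 had 1 symbol, 396 had several and 1193 were unnamed. Probe sets with several symbols gave no gene its name. Symbols were updated by gene ID through RefSeq's table (10817 found).

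Values were analysed as log2(signal + 16) with limma 3.58.1 (lmFit, then eBayes; R 4.3.3) as two-sided tests, fitted and adjusted over the whole table. The fit had 2 residual and 2.87 prior degrees of freedom, and the median SE of a difference was 0.22; the number of arrays limits the precision. The script was tested on simulated data. The ligands, the lists and the genes named were chosen with earlier results of these data known; the genes named by role were Men1, all ligands and a fixed set of pathway genes. Of that set Porcn, Wif1, Tcf7, Nkd1, Gsk3b and the remaining Wnt ligands were not analysed here. Alternatives were other pseudocounts, quantile normalization, a filter on dim probe sets, replicate number as a block, each array left out in turn, and other control levels. The 95% intervals use limma's moderated SE.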

Additional observations from a re-analysis of the deposited data

How the results depend on the processing

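By limma, 0 probe sets, 0 Wnt ligand probe sets and 0 other Wnt pathway probe sets passed the adjusted threshold in the values as reported and in each of the 9 other settings run, where the smallest adjusted p was 0.576, without vector replicate 1. The ligand probe sets at an unadjusted p under 0.05 numbered 1 in the values as reported and in the other settings with all 4 arrays, and 1 to 2 without single arrays; the added probe set was Wnt10b 92750_s_at without vector replicate 1 and Wnt3a without vector replicate 2. For the rest of the pathway the count was 3 as reported and with quantile normalization. It was 2 with either other pseudocount or with replicate number as a block. It was 1 with the filter on dim probe sets, which kept 108 of these 145 probe sets, 6 of the 12 ligand probe sets and 8412 of all 12422. Over all probe sets tested it was 233 as reported, 121 with that filter, 1031 and 559 without vector replicates 1 and 2, and 121 and 131 without Men1 replicates 1 and 2. Wnt3 was lower with Men1 in every setting, at -1.84 to -0.53, with an unadjusted limma p of 0.00186 to 0.0219 and an adjusted p of 0.576 to 1. Wnt11 and Wnt5b also kept their signs. Of the 12 ligand probe sets, 3 exceeded the controls on all arrays also with the control level at the median plus 3 SD and at the highest control of any array.

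Replicate numbers are not stated to pair the samples. With replicate number as a block, Wnt3 differed by -1.14, with a limma adjusted p of 1, and 0 probe sets passed. Of the other pathway probe sets 2 were then at an unadjusted limma p under 0.05, 1 of them higher with Men1. Over all probe sets that count was 297. Over all probe sets the deviations of same-numbered arrays correlated at 0.26, which 2 pairs cannot settle.

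Signs changed mostly where single arrays were left out, a setting that leaves 1 array in a group, assumed to vary like the others. The ranges over these were -0.085 to 0.32 for Wnt1, -0.71 to 0.25 for Wnt10b 92750_s_at, -0.21 to 0.37 for Wnt10b 92751_i_at, -0.45 to 0.019 for Wnt10b 92752_r_at and -0.091 to 0.58 for Wnt3a. They were -0.29 to 0.27 for Wnt4, -0.074 to 0.25 for Wnt5a, -0.015 to 0.61 for Wnt6 and -0.042 to 0.069 for Wnt7a. Outside the ligands they were -0.16 to 0.31 for Apc, -0.14 to 0.35 for Axin2, -0.20 to 0.26 for Ccn4, -0.082 to 0.19 for Ccnd1 94231_at, -0.0011 to 0.26 for Ccnd1 94232_at, -0.38 to 0.28 for Cd44 103003_i_at and -0.024 to 0.30 for Cd44 103004_r_at. Further ranges were -0.30 to 0.15 for Ctnnb1, -0.034 to 0.32 for Dkk1, -1.69 to 0.59 for Dkk3, -0.27 to 0.17 for Dvl1, -0.089 to 0.15 for Frzb, -0.59 to 0.42 for Fzd1 and -0.33 to 0.073 for Fzd2. Others were -0.22 to 0.054 for Fzd7, -0.016 to 0.49 for Gpc1, -1.64 to 0.58 for Gpc3, -0.24 to 0.22 for Lrp5, -0.32 to 0.16 for Lrp6 103271_at, -0.31 to 0.10 for Men1 and -0.86 to 0.016 for Ror2 93723_at. The last were -2.06 to 0.23 for Sfrp1, -0.90 to 0.53 for Sfrp2, -0.016 to 0.39 for Tcf7l2 102241_f_at, -0.33 to 0.23 for Tcf7l2 97660_s_at, -0.51 to 0.34 for Wnt10a and -0.11 to 0.19 for Wnt8a. With quantile normalization the dim Cd44 probe set 103003_i_at changed sign to 0.0071. The cause of these changes beyond the fewer arrays was not tested. Probe sets near or below the controls, most of the ligands, limit what can be seen.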
